A study of Mus musculus with 17 samples.

Results

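Transcripts of 10 genes that mark GABAergic interneurons were followed in mouse hippocampus: Gad1, Gad2, Slc32a1, Pvalb, Calb2, Sst, Npy, Vip, Cck and Reln. They were taken by name from the 24491 genes in the count tables, not by their values. All 10 were among the 14877 genes that passed the filter on low counts, with 325 to 11866 counts per library.

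The hippocampus came from adult female first-generation offspring of CD1 mice, wild type, 40 to 44 weeks old (about 10 months) and themselves untreated. Their mothers were young (4 libraries, called young 1 to 4), aged and untreated (3 libraries, aged 1 to 3), or aged and given rapamycin, an inhibitor of the mTOR kinase, by intraperitoneal injection at 2 mg/kg for 40 weeks from week 8 (3 libraries, rapamycin 1 to 3). Polyadenylated RNA of hippocampus tissue was sequenced, and nothing in the labels ties each library to an animal or litter of its own, so a p-value here reflects the spread among these libraries, part of which may be technical. The series also holds 7 oocyte libraries, which enter no comparison here.

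Interneurons are the local inhibitory cells of the hippocampus. They make GABA with the glutamate decarboxylases encoded by Gad1 and Gad2, and load it into vesicles with the transporter encoded by Slc32a1. Classes that inhibit the soma, the dendrites or other interneurons are told apart by calcium-binding proteins, by neuropeptides released along with GABA, and by the secreted matrix protein reelin. Some of these genes are not confined to interneurons: Cck is also expressed in pyramidal cells, Calb2 in mossy cells of the mouse dentate gyrus and in Cajal-Retzius cells, and Reln in Cajal-Retzius cells. In bulk tissue, fewer cells of a type and less RNA per cell cannot be told apart.

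Sst and Vip were among the first genes in which a cyclic-AMP response element, the binding motif of the activity-regulated factor CREB, was described, and the motif is shown here because activity-induced genes differed between these groups. RefSeq promoter windows of GRCm38.p6 were available for 9 of the 10 genes. In the 250 bases before the start, the full palindrome TGACGTCA was present for 1 of the 9 genes, Sst, and in 508 of 32851 windows (1.55%). The shorter TGACGT, searched on both strands and contained in the palindrome, was present for Sst and Vip, and in 2125 windows (6.47%). The stretches of 30 bases around the match, with the motif in capitals and the Fos promoter for comparison, were as follows.
Sst, chr16:23890874-23890903, minus strand: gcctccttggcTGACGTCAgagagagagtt
Vip, chr10:5639127-5639156, plus strand: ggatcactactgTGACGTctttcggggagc
Fos, chr12:85473812-85473841, plus strand: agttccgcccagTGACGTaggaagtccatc
The motif began 48 bases before the start of Sst, 79 before that of Vip and 66 before that of Fos. A match is a stretch of letters and was not tested as a binding site.

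Levels are given as CPM, read counts scaled to the normalised library size. Libraries held 16434398 to 20220617 counts in genes and 10 or more counts for 14322 to 14741 genes. The tissue label was checked against marker genes: 7 excitatory neuron genes summed to 8099 to 10681 CPM, and the interneuron transcription factors Dlx1 and Lhx6 were detected in every library, at 8.98 to 13.5 and 16.5 to 26.2 CPM. Library aged 1 stood apart in a list of thalamus and habenula genes (10 of 12 tested), whose sum there was 215 CPM, against 82.5 to 142 CPM in the other 9. Gpr151, a habenula receptor, stood at 18.7 CPM in aged 1 and at most at 1.82 CPM elsewhere. Library young 2 was highest in choroid plexus genes (92.5 CPM summed). Cytosolic ribosomal protein genes differed among libraries of a group, as described below. Of 12 immediate early genes, which neurons switch on with activity, 7 rose in offspring of aged mothers and 6 in offspring of rapamycin-treated mothers, both against offspring of young mothers (edgeR). The former were Arc, Egr2, Egr4, Fos, Fosb, Nr4a1 and Sik1, and the latter Dusp1, Egr2, Fos, Fosb, Ier2 and Sik1. In the comparison of aged with young these 7 were all the genes edgeR called, and that count went to 0 without young 1, to 2 without young 3, aged 1, aged 3, rapamycin 1 or rapamycin 3, and to 15 without young 2. Between rapamycin and young edgeR called 8 genes in all, and 2 without young 1, 3 without rapamycin 1, 4 without young 3, and 5 without aged 1 or rapamycin 3. The log2 fold change of Fos was 2.79 ± 0.27 (SE, edgeR adjusted p = 0.00576) for aged against young and 3.23 ± 0.28 (edgeR adjusted p = 0.00154) for rapamycin against young.

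Levels of different genes were compared per kilobase of exon, as CPM divided by the length of the merged exons of GENCODE M21. Cck, the precursor of the peptide cholecystokinin, was highest, at 429 ± 82.0 CPM per kilobase (SD, n = 10 libraries), and Sst, the somatostatin precursor, followed at 279.8 ± 89.7. Among the enzymes of GABA synthesis, Gad1 stood at 81.0 ± 8.90 and Gad2 at 25.1 ± 4.73 CPM per kilobase. Next to Gad1 came the neuropeptide Y gene Npy (67.0 ± 20.8) and the parvalbumin gene Pvalb (54.8 ± 21.6). The calretinin gene Calb2 (29.5 ± 8.26) and the vesicular transporter gene Slc32a1 (28.8 ± 3.80) were close to each other, and Vip, for vasoactive intestinal peptide, stood at 18.2 ± 4.26. Reln, with 11699 bases of exon, was lowest at 5.61 ± 1.01 CPM per kilobase.

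The order Cck above Sst, Sst above Gad1, and Vip above Reln held in 10 of 10 libraries. The other neighbours were within their spread or close to it: Calb2 was above Slc32a1 in 6 of 10 libraries, Gad1 above Npy and Slc32a1 above Gad2 in 8, and Npy above Pvalb, Pvalb above Calb2 and Gad2 above Vip in 9. These lengths come from a gene model that may differ from the one used for counting.

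**Figure D1:**
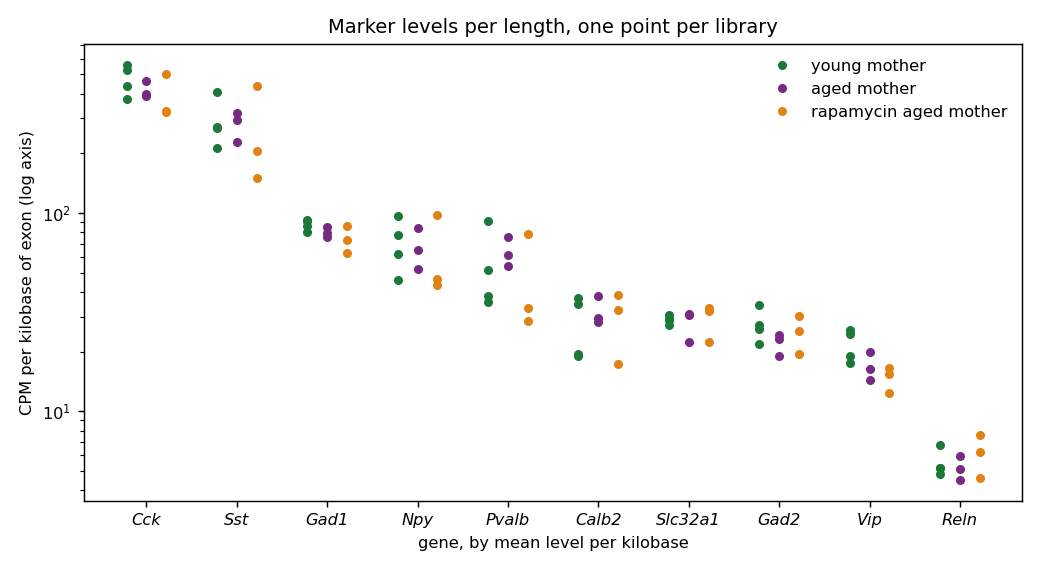
Level of each marker in each of the 10 hippocampus libraries, as CPM per kilobase of exon on a log axis, with genes ordered by their mean and points coloured by the mother's group. Cck and Sst lie above the other 8 genes in every library and Reln lies below them, while the 3 groups overlap for most genes.

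Of the genes of GABA synthesis and vesicular loading, Gad1 and Slc32a1 had the narrowest spans of the 10 markers, with the highest library at 1.47 and 1.49 times the lowest. Gad1 (chromosome 2, 70553072 to 70602014, plus strand of GRCm38, protein-coding like all 10) encodes the larger decarboxylase, which makes most of the GABA of the cell. It stood at 351, 397, 401 and 373 CPM in young 1 to 4, at 330.2, 369 and 347 CPM in aged 1 to 3, and at 375, 273 and 318 CPM in rapamycin 1 to 3. Young 3 was highest and rapamycin 2 lowest. Group means were 381 ± 23.5 (SD, n = 4), 349 ± 19.5 (n = 3) and 322 ± 51.2 CPM (n = 3), and each pair of groups overlapped.

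Gad2 (chromosome 2, 22622205 to 22693874, plus strand) encodes the smaller decarboxylase, concentrated at synaptic terminals. Its levels were 156, 126, 197 and 150.0 CPM in young 1 to 4, 109, 133 and 140.0 CPM in aged 1 to 3, and 174, 112 and 147 CPM in rapamycin 1 to 3. Young 3 was highest and aged 1 lowest, a 1.81-fold span, and the groups overlapped. Slc32a1 (chromosome 2, 158610767 to 158615748, plus strand) showed 86.0, 75.8, 81.3 and 80.4 CPM in young 1 to 4, 62.4, 85.8 and 86.8 CPM in aged 1 to 3, and 89.7, 93.4 and 62.7 CPM in rapamycin 1 to 3. Aged 1 and rapamycin 3 lay below the other 8 libraries, which ranged only from 75.8 to 93.4 CPM. Exons of Slc32a1 overlap the antisense gene Gm14205 in GENCODE M21, so a part of its counts could come from that gene if the counting did not use strand.

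The calcium-binding proteins varied more. Pvalb (chromosome 15, 78191114 to 78206400, minus strand) marks fast-spiking basket and axo-axonic cells. It was at 39.7, 94.99, 37.0 and 53.9 CPM in young 1 to 4, at 63.7, 79.2 and 56.5 CPM in aged 1 to 3, and at 34.6, 81.5 and 29.6 CPM in rapamycin 1 to 3. This 3.21-fold span was the widest of the 10 genes, and in each group the library numbered 2 was highest. Calb2 (chromosome 8, 110137502 to 110168210, minus strand) stood at 64.9, 60.3, 33.1 and 34.1 CPM in young 1 to 4, 51.7, 66.7 and 49.3 CPM in aged 1 to 3, and 30.3, 67.6 and 56.4 CPM in rapamycin 1 to 3. Young 3, young 4 and rapamycin 1 lay together at 30.3 to 34.1 CPM, apart from the other 7 libraries. Of the other cells that express Calb2, the list of Cajal-Retzius genes (3 of 4 tested) summed to 5.53 to 6.81 CPM in young, 5.93 to 9.79 CPM in aged and 4.46 to 7.99 CPM in rapamycin libraries. In that list Trp73 ranged from 3.30 to 5.83 CPM, while Ebf3 stood at 4.50 CPM in aged 1 and at 1.01 to 1.99 CPM in the rest. The list of mossy cell genes (4 of 4 tested) summed to 90.01 to 112 CPM in young and 78.1 to 89.8 CPM in aged libraries. In rapamycin libraries it summed to 92.4 to 96.4 CPM, so by this sum the aged libraries lay lowest. Most of the sum was Ociad2, at 69.8 to 104 CPM. By mean log2 level, relative to the mean of the libraries, rapamycin 2 (-0.30) lay below the aged libraries (-0.27 to -0.16). No gene of either list passed in any comparison with edgeR or DESeq2, 1 mossy cell gene had an unadjusted p under 0.05 (aged against young), and the part of these cells in the Calb2 and Reln values was not tested.

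Among the peptide genes, Sst (chromosome 16, 23889573 to 23890958, minus strand) marks dendrite-targeting cells of stratum oriens and the hilus. Its levels were 154, 295, 196 and 193 CPM in young 1 to 4, 164, 231 and 213 CPM in aged 1 to 3, and 149, 314 and 109 CPM in rapamycin 1 to 3. The lowest and the highest of all 10 libraries, 2.89-fold apart, both belonged to the rapamycin group. Npy (chromosome 6, 49822710 to 49829507, plus strand), found in many Sst cells and in neurogliaform and ivy cells, gave 25.9, 54.6, 35.1 and 43.6 CPM in young 1 to 4, 29.5, 47.5 and 36.7 CPM in aged 1 to 3, and 26.2, 55.5 and 24.7 CPM in rapamycin 1 to 3. As for Pvalb, the library numbered 2 was the highest of each group for both Sst and Npy. The labels do not say that a number marks a shared batch, and they name no batch.

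Vip (chromosome 10, 5639218 to 5647617, plus strand) marks cells that largely inhibit other interneurons. It stood at 26.9, 39.4, 29.0 and 37.7 CPM in young 1 to 4, at 22.0, 25.1 and 30.5 CPM in aged 1 to 3, and at 23.6, 25.4 and 18.9 CPM in rapamycin 1 to 3. Every rapamycin library lay below every young library, with the highest rapamycin value at 25.4 and the lowest young value at 26.9 CPM, while the aged libraries overlapped both groups. Cck (chromosome 9, 121489824 to 121495694, minus strand) stood at 508, 649, 435 and 613 CPM in young 1 to 4, 450.5, 463 and 538 CPM in aged 1 to 3, and 378, 579.7 and 374 CPM in rapamycin 1 to 3. Rapamycin 1 and 3 were the lowest libraries and rapamycin 2 was among the highest, so the groups overlapped.

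Reln (chromosome 5, 21884454 to 22344702, minus strand) is secreted by neurogliaform and other interneurons of the outer layers. Values were 60.6, 56.5, 79.2 and 60.8 CPM in young 1 to 4, 52.7, 60.1 and 70.0 CPM in aged 1 to 3, and 88.8, 54.0 and 73.2 CPM in rapamycin 1 to 3. Rapamycin 1 and young 3 were highest and aged 1 lowest, and the groups overlapped. An antisense gene, Gm10475, overlaps exons of Reln in GENCODE M21, with the same limit as for Slc32a1.

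**Figure D2:**
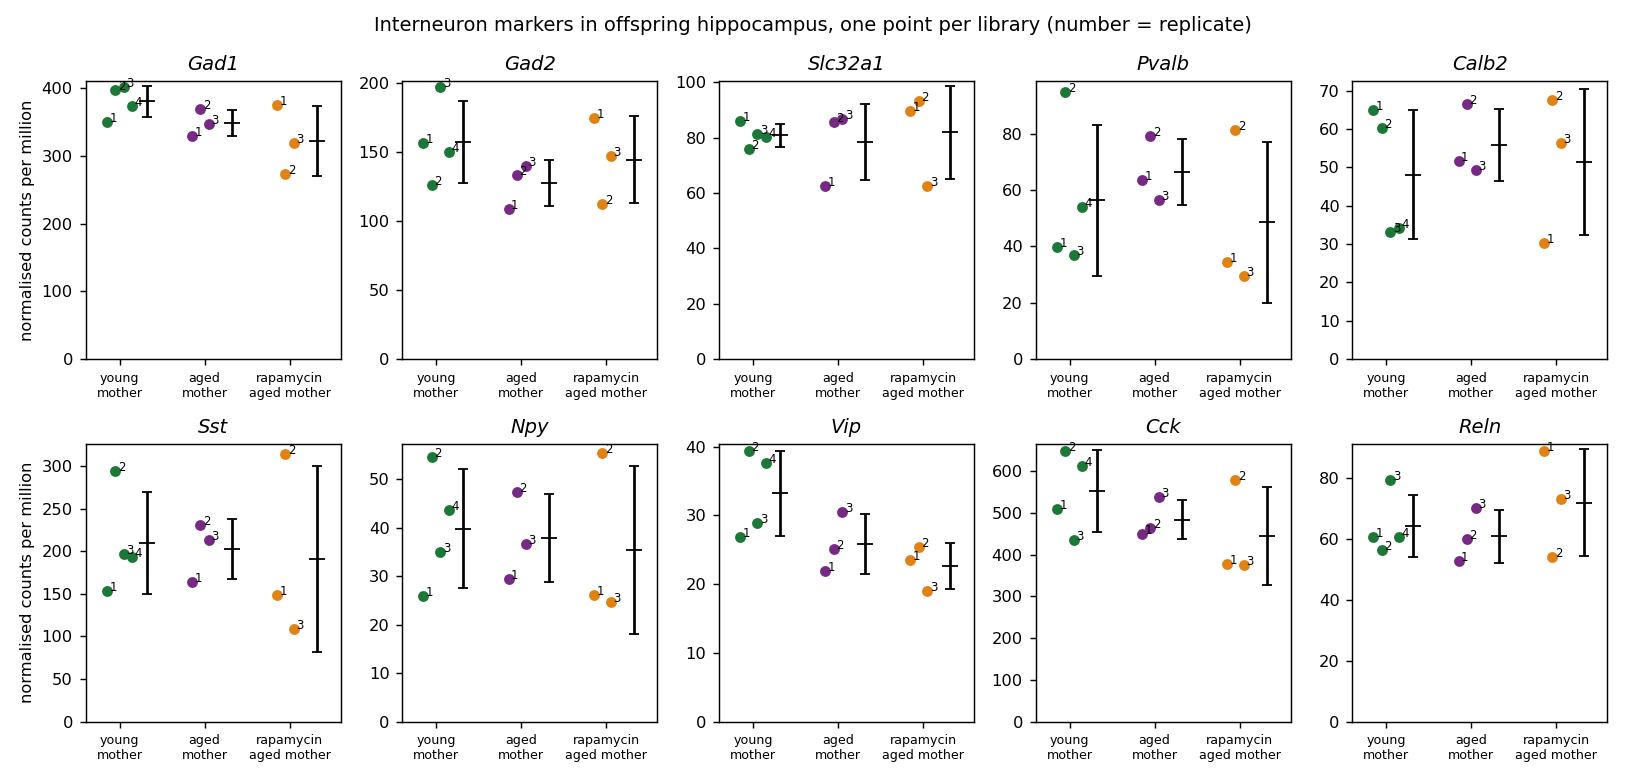
Normalised counts (CPM) of the 10 markers in each hippocampus library, with one panel per gene, axes that start at 0, the replicate number beside each point, and the mean with 1 SD drawn to the right of each group. Vip is the one panel in which the rapamycin libraries (18.9 to 25.4 CPM) lie wholly below the young ones (26.9 to 39.4 CPM), and the library numbered 2 tops each group for Pvalb, Sst and Npy.

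The first comparison asked whether these transcripts differ between adult offspring of aged and of young mothers. None of the 10 passed the test (edgeR, Benjamini-Hochberg over all 14877 genes, adjusted p = 0.990 to 0.994), none had an unadjusted p under 0.05, and DESeq2 called none. Over all genes edgeR called 0.0471%, an unadjusted p under 0.05 was seen for 3.51%, and DESeq2 called 0.308%. No member had groups free of overlap in either direction, as 2.92% of all genes had with aged libraries higher and 2.52% with aged libraries lower. The log2 fold change was below 0 for 8 of 10 genes, against 52.1% of all genes, and its median was -0.07 against -0.01 over all genes. Vip had the largest difference, 25.9 ± 4.30 CPM (SD, n = 3) against 33.2 ± 6.19 CPM (n = 4), a log2 fold change of -0.36 ± 0.18 (SE, edgeR adjusted p = 0.990).

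The intervals show how much these data leave room for. At the 95% level, that of Gad1 ran from -0.41 to 0.16 and that of Slc32a1 from -0.41 to 0.32 on the log2 scale. Gad2 had a log2 fold change of -0.30 ± 0.19 (-0.72 to 0.11). Pvalb (0.24 ± 0.39) and Calb2 (0.22 ± 0.31) were the only members with a fitted value above 0, with intervals up to 1.10 and 0.90. Sst (-0.05 ± 0.34), Npy (-0.07 ± 0.32), Cck (-0.19 ± 0.19) and Reln (-0.08 ± 0.19) were nearer to 0, and the interval of Sst reached from -0.79 to 0.69. A p that misses the threshold does not show that the groups are alike.

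The next comparison set offspring of rapamycin-treated aged mothers against those of untreated aged mothers. Again none of the 10 genes passed (edgeR adjusted p = 0.796 to 0.949), none had an unadjusted p under 0.05 and DESeq2 called none, while over all genes these shares were 0%, 4.52% and 0.0786%. The groups overlapped for every member, while 5.01% of all genes had all rapamycin libraries above the aged ones and 4.88% had them below. Fitted values were below 0 for 7 of 10 genes against 47.4% of all genes, and their median was -0.11 against 0.02. Pvalb had the largest difference, -0.45 ± 0.42 (interval -1.38 to 0.48), from 66.4 ± 11.6 CPM (SD, n = 3) in aged to 48.5 ± 28.6 CPM (n = 3) in rapamycin libraries. Rapamycin 2 stood far above the other rapamycin libraries, and without it the value was -1.06 (edgeR adjusted p = 0.186, the lowest of any marker in any setting run for this comparison). Reln (0.24 ± 0.20), Gad2 (0.18 ± 0.20) and Slc32a1 (0.06 ± 0.18) were above 0. Values for Gad1 (-0.11 ± 0.14), Calb2 (-0.12 ± 0.33), Sst (-0.09 ± 0.36), Npy (-0.10 ± 0.35), Vip (-0.19 ± 0.19) and Cck (-0.12 ± 0.21) were all within 1 SE of 0.

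Offspring of rapamycin-treated aged mothers were also compared with offspring of young mothers, a comparison that shares its libraries with both of the others. None of the 10 genes passed (edgeR adjusted p = 0.999 for each) and DESeq2 called none, against 0.0538% and 0.182% of all genes. One gene, Vip, or 1 of 10, had an unadjusted p under 0.05, which 3.63% of all genes had. It was also the 1 gene whose rapamycin libraries all lay below the young ones, a pattern seen for 2.1% of all genes, and no member had them wholly above, as 2.93% of all genes did. Vip stood at 22.6 ± 3.32 CPM (SD, n = 3) against 33.2 ± 6.19 CPM (n = 4), a log2 fold change of -0.55 ± 0.18 (interval -0.96 to -0.15, edgeR unadjusted p = 0.0120, adjusted p = 0.999). Over all alternatives its adjusted p ranged from 0.438 to 1 and its log2 fold change from -0.65 to -0.45 when single libraries were left out.

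Gad1 was at -0.24 ± 0.13 (interval -0.53 to 0.05) and Cck at -0.31 ± 0.19 (-0.74 to 0.12) in that comparison. The remaining values were -0.12 ± 0.19 for Gad2, 0.02 ± 0.16 for Slc32a1, -0.22 ± 0.39 for Pvalb, 0.10 ± 0.31 for Calb2, -0.14 ± 0.34 for Sst, -0.17 ± 0.32 for Npy and 0.16 ± 0.19 for Reln. In all, 7 of 10 were below 0, against 48.7% of all genes, and the median was -0.15 against 0.01. The immediate early genes moved with the same groups: their summed level was 304 to 465 CPM in young, 836 to 1365 CPM in aged and 923 to 1061 CPM in rapamycin libraries, and their part in the Vip values was not tested.

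**Figure D3:**
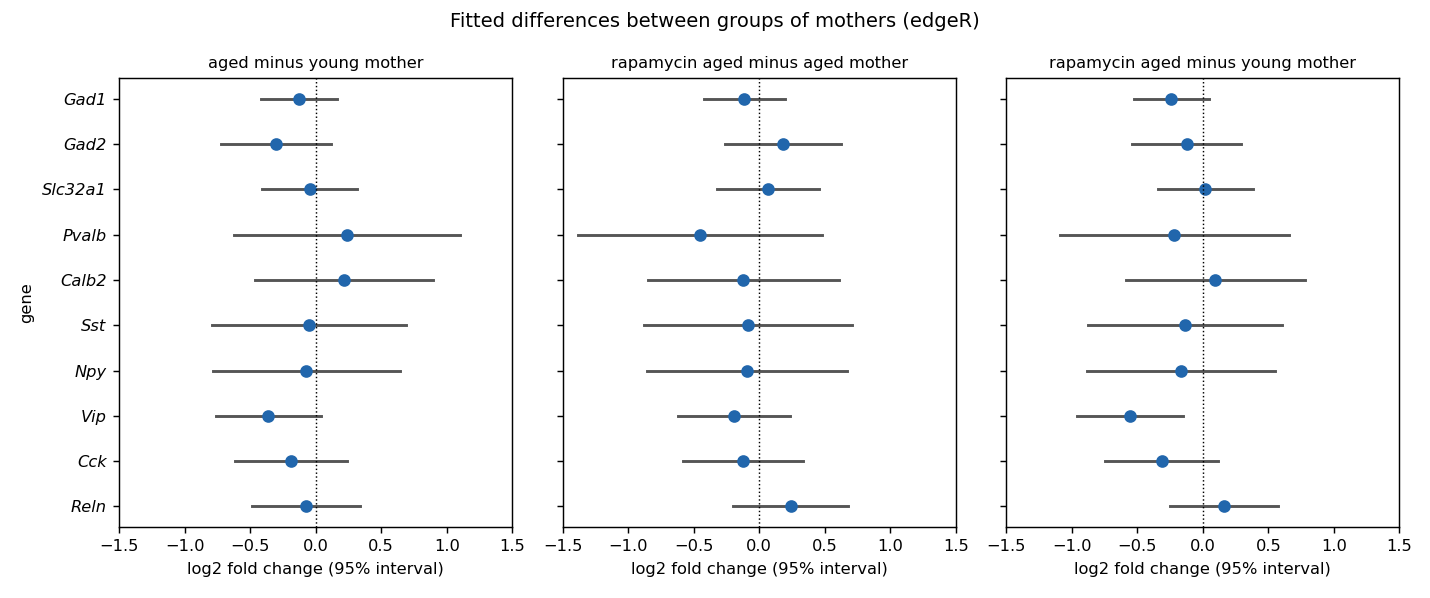
Fitted log2 fold changes of the 10 markers with 95% intervals (edgeR) in the 3 comparisons, with a dotted line at 0. Of the 30 intervals drawn, that of Vip between rapamycin and young is the one that does not reach 0, and those of Pvalb, Sst, Npy and Calb2 are the widest.

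Some of the markers varied together, and the share of such pairs among other genes was not computed. Over the 10 libraries, 45 pairs were compared by the correlation of log2 CPM (permutation test with 100000 resamples, two-sided, Benjamini-Hochberg over the pairs), and 5 passed, all with positive r. Sst and Npy, which share many cells, had r = 0.94 and rho = 0.95 (permutation p = 2e-05 and 6e-05, adjusted p = 0.0009 and 0.0027). Pvalb followed both: r = 0.86 and rho = 0.87 with Sst (permutation p = 0.00104 and 0.00213, adjusted 0.0234 and 0.0319), and r = 0.86 and rho = 0.85 with Npy (permutation p = 0.00283 and 0.00303, adjusted 0.0312 and 0.0341). Gad2 and Reln had r = 0.84 and rho = 0.88 (permutation p = 0.00215 and 0.00196, adjusted 0.0312 and 0.0319). Vip and Cck had r = 0.82 and rho = 0.81 (permutation p = 0.00347 and 0.00732), with an adjusted p of 0.0312 for r and 0.0549 for rho.

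Of the 5 pairs, only Sst and Npy passed in every check run. Without the pair of libraries farthest from the median of the first gene, r was 0.94 for Sst and Npy (adjusted permutation p = 0.0279), 0.74 for Pvalb and Sst, 0.77 for Pvalb and Npy, 0.79 for Gad2 and Reln, and 0.63 for Vip and Cck, and these last 4 kept their sign but no longer passed over the 8 libraries that remained. Leaving out each library in turn kept Sst and Npy past the threshold in 10 of 10 cases, Pvalb and Sst in 6, Pvalb and Npy in 4, Gad2 and Reln in 4, and Vip and Cck in 3. The number of pairs that passed was 1 without young 2, aged 2, rapamycin 1 or rapamycin 3, 3 without aged 1, aged 3 or rapamycin 2, 5 without young 3, 6 without young 4 and 8 without young 1. After group means were subtracted 9 pairs passed, 8 positive and 1 negative (Gad2 and Pvalb, r = -0.79). In that check libraries were shuffled across groups, although subtracting a mean ties the deviations of a group to each other. Its p-values are therefore likely too small.

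**Figure D4:**
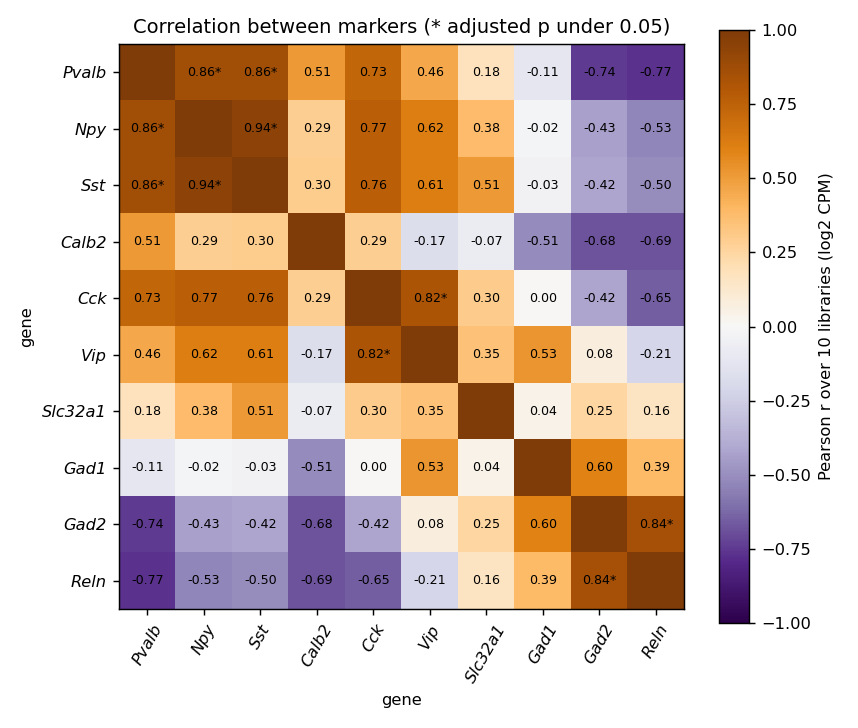
Pearson r of log2 CPM between the 10 markers over the 10 hippocampus libraries, with an asterisk where the adjusted permutation p was under 0.05. Pvalb, Npy and Sst form a block with r of 0.86 to 0.94, joined by Cck at 0.73 to 0.77, while Gad2 and Reln correlate with each other at 0.84 and have negative r with Pvalb.

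The same split of libraries was seen in genes that are no interneuron markers. The mean log2 level of 74 cytosolic ribosomal protein genes ran from -0.92 in rapamycin 1 to 0.68 in young 2, relative to the mean of the libraries, with -0.23, -0.53 and -0.10 in young 1, 3 and 4, 0.50, 0.37 and 0.02 in aged 1 to 3, and 0.65 and -0.44 in rapamycin 2 and 3. Summed, these genes took 10606 CPM in rapamycin 1 and 31481 CPM in young 2. Oligodendrocyte genes were high in 4 of the same libraries, at 10081 CPM in young 2, 8013 in aged 1, 10319 in aged 2 and 10041 in rapamycin 2, against 2779 to 5012 CPM in the other 6. Young and rapamycin libraries lay at both ends of the ribosomal protein level, and the aged libraries between them and toward the upper end. The part of oligodendrocyte RNA in the marker values was not tested.

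The relation of each marker to the ribosomal protein level was examined after the data had been seen (10 relations, permutation test, two-sided, Benjamini-Hochberg over the 10). The share of all genes with such a relation was not computed. Pvalb had r = 0.92 and rho = 0.95 (permutation p = 0.00032 and 0.00015, adjusted 0.0016 and 0.0015), Reln r = -0.91 and rho = -0.90 (p = 0.0003 and 0.00082, adjusted 0.0016 and 0.0032, permutation), and Gad2 r = -0.88 and rho = -0.90 (p = 0.00099 and 0.00096, adjusted 0.0033 and 0.0032, permutation). Without young 2 and rapamycin 1, the libraries farthest from the median of the ribosomal protein level, r was 0.93 for Pvalb, -0.86 for Reln and -0.91 for Gad2, and all 3 still passed (adjusted permutation p = 0.0090, 0.0300 and 0.0090). With group means subtracted, r was 0.91, -0.91 and -0.94.

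Npy (r = 0.72, rho = 0.73, both with adjusted permutation p of 0.0449 and 0.0401), Sst (r = 0.71, rho = 0.75, adjusted permutation p = 0.0449 and 0.0401) and Calb2 (r = 0.70, rho = 0.66, adjusted permutation p = 0.0487 and 0.0623) passed less clearly. Without young 2 and rapamycin 1 their r was 0.59, 0.63 and 0.52, and none passed over the 8 libraries that remained. With group means subtracted all 3 passed, at r = 0.75, 0.73 and 0.70 (adjusted permutation p = 0.0236, 0.0284 and 0.0349). As for the pairs, p-values after this subtraction are likely too small. Cck (r = 0.67, rho = 0.71, adjusted permutation p = 0.0541 and 0.0456), Gad1 (r = -0.33, rho = -0.30, adjusted permutation p = 0.444 and 0.474), Vip (r = 0.27, rho = 0.28, adjusted permutation p = 0.498 and 0.474) and Slc32a1 (r = -0.08, rho = -0.14, adjusted permutation p = 0.812 and 0.705) did not pass by r.

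**Figure D5:**
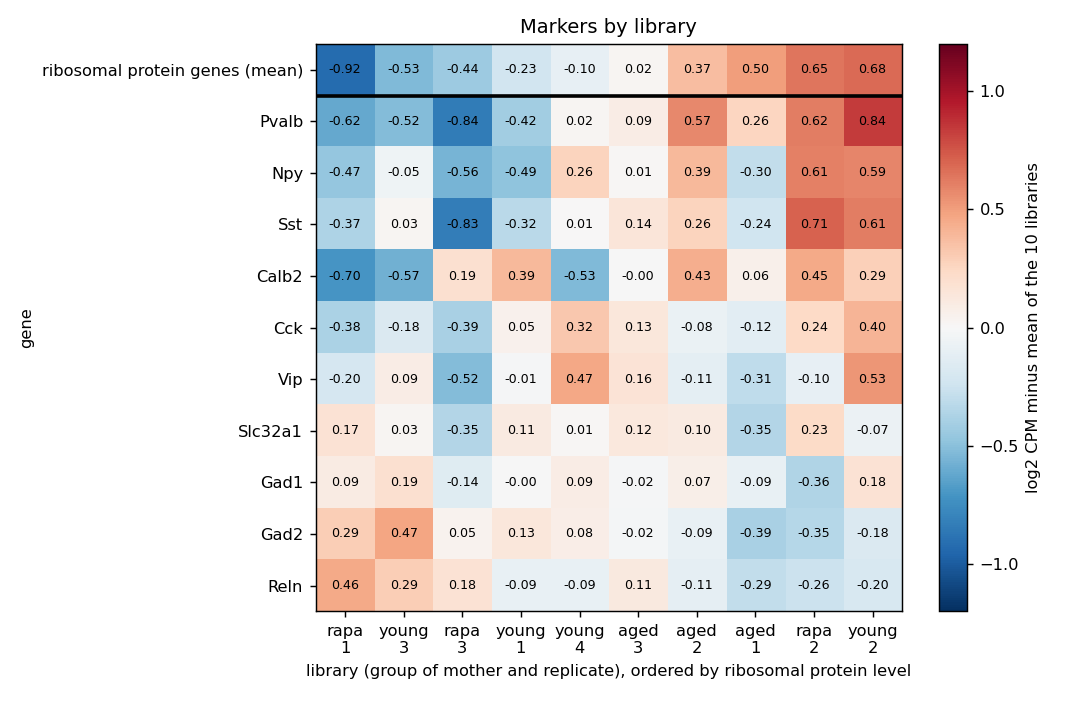
Deviation of each marker's log2 CPM from its mean over the 10 libraries, with libraries ordered from the lowest to the highest ribosomal protein level (top row). Pvalb goes from -0.62 in rapamycin 1 to 0.84 in young 2, and Reln from 0.46 to -0.20 over the same libraries.

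With the ribosomal protein level as a covariate, the standard error of the comparison of aged with young went from 0.39 to 0.17 for Pvalb, from 0.19 to 0.09 for Gad2 and from 0.19 to 0.10 for Reln. Still none of the 10 genes passed in any comparison (edgeR). Between rapamycin and young, Vip was then at -0.52 ± 0.17 (edgeR unadjusted p = 0.00943, adjusted p = 0.444) and Gad1 at -0.28 ± 0.10 (edgeR adjusted p = 0.483). Pvalb was at 0.0017 ± 0.17 between aged and young, with an interval of -0.36 to 0.37.

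For each marker, the 2 genes most like it were taken by Pearson r of log2 CPM over the 10 libraries, among 14876 other genes, as a description. Pvalb was closest to Ethe1 and Crip2 (r = 0.99 for both) and Sst to Barx2 (0.97) and Ucp3 (0.96). Npy was closest to Mvb12a (0.95) and Pddc1 (0.94), Cck to 1110051M20Rik and Atp6v0b (0.97 for both), and Vip to Drg2 (0.93) and Chga (0.90), the gene of the vesicle protein chromogranin A. Gad1 lay nearest to 2010315B03Rik (0.94) and Tmco6 (0.92), Gad2 to Ptpre and 4930469G21Rik (0.96 for both), and Slc32a1 to Eml1 (0.95) and Rhof (0.94). Calb2 lay nearest to Tinf2 (0.94) and Kctd5 (0.93), and Reln to Slc26a2 and Etohi1 (0.95 for both). No member was among the nearest genes of another member.

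The wider machinery of inhibition was described with 8 lists of 106 genes, of which 96 were tested. They cover GABA transport and breakdown, GABA receptor subunits, the inhibitory postsynapse and chloride transport, interneuron transcription factors, other genes of Pvalb cells, of Sst and Npy cells, and of Cck, Vip and neurogliaform cells, and receptors of the peptides and of reelin. No gene of these lists passed in any of the 3 comparisons with edgeR or DESeq2. An unadjusted p under 0.05 was seen for 3 of 96 genes (3.13%) between aged and young, 7 (7.29%) between rapamycin and aged, and 7 (7.29%) between rapamycin and young, against 3.51%, 4.52% and 3.63% of all genes. Values below 0 numbered 64, 40 and 53 of 96, against 52.1%, 47.4% and 48.7% of all genes, with medians of -0.10, 0.09 and -0.02 against -0.01, 0.02 and 0.01.

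None of the genes named in the next paragraphs passed (edgeR adjusted p of 0.990 between aged and young, 0.796 between rapamycin and aged, and 0.999 between rapamycin and young). Among the receptor subunits (15 of 21 tested), Gabra5, typical of hippocampal receptors outside the synapse, had a log2 fold change of -0.37 ± 0.14 between rapamycin and young. Between aged and young, Gabrg1 had 0.39 ± 0.15 and Gabrd, of tonic receptors, 0.22 ± 0.14.

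Among the transporters and enzymes that end GABA signals (7 of 7 tested), Slc6a13 had 0.53 ± 0.45 between aged and young, and Abat, which breaks down GABA, 0.17 ± 0.14 and 0.20 ± 0.13 between rapamycin and aged and between rapamycin and young. Slc6a13 stood at 6.01 CPM in aged 1 and at 1.76 to 4.11 CPM elsewhere. The glial transporter gene Slc6a11 had 0.29 ± 0.13 between rapamycin and young. At the inhibitory postsynapse (11 of 11 tested), Shisa7 (-0.58 ± 0.32) and Mdga1 (-0.64 ± 0.40) were lowest in p between aged and young, Igsf9b (0.51 ± 0.38) and Slitrk3 (0.46 ± 0.35) between rapamycin and aged, and Mdga1 (-0.51 ± 0.40) and the chloride importer gene Slc12a2 (0.15 ± 0.19) between rapamycin and young.

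Transcription factors of interneuron lineages (16 of 16 tested) differ with the origin of the cells, and many of them stay on in adult interneurons. Nkx2-1 of this list had only 6 to 41 counts per library. Lhx6, kept by cells from the medial ganglionic eminence such as Pvalb and Sst cells, had -0.29 ± 0.14 between aged and young. Sox6, which acts after Lhx6 in the same lineage, had 0.30 ± 0.17 between aged and young and 0.53 ± 0.17 between rapamycin and young. Its levels were 19.9, 14.2, 19.9 and 15.9 CPM in young 1 to 4 and 26.1, 26.0 and 23.8 CPM in rapamycin 1 to 3, without overlap. Over all genes, 2.93% had every rapamycin library above every young one. Of the 16 factors, 10 were below 0 between rapamycin and young (median -0.05), against 48.7% of all genes. Oligodendrocyte precursor genes summed to 224 to 244 CPM in rapamycin and 180 to 216 CPM in young libraries. Their part in the Sox6 value was not tested. The lineage gene Dlx6 had -0.48 ± 0.28 between rapamycin and aged and -0.50 ± 0.26 between rapamycin and young.

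Of the genes that go with Pvalb cells (10 of 10 tested), Hapln1, a link protein of the perineuronal nets around these cells, had -0.36 ± 0.15 between rapamycin and aged and -0.40 ± 0.14 between rapamycin and young. Acan, the net proteoglycan aggrecan, had -0.43 ± 0.32 between aged and young and -0.28 ± 0.31 between rapamycin and young. Tac1 had 0.49 ± 0.33 between aged and young, and Kcnc2, a potassium channel of fast-spiking cells, 0.34 ± 0.23 between rapamycin and aged. In the list for Sst and Npy cells (11 of 12 tested), Tacr1 had -0.49 ± 0.33 and 0.56 ± 0.35 in the comparisons of aged with young and of rapamycin with aged. These comparisons share the aged libraries. Pnoc had -0.52 ± 0.33 between rapamycin and aged and -0.37 ± 0.31 between rapamycin and young, and Nxph1 -0.21 ± 0.12 between rapamycin and young.

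The list for Cck, Vip and neurogliaform cells (12 of 13 tested) summed to 730.2 to 851 CPM in young, 627 to 699 CPM in aged and 575 to 732 CPM in rapamycin libraries, and 10 of its 12 values between rapamycin and young were below 0 (median -0.22), against 48.7% of all genes (median 0.01). The young libraries lay above the aged ones in this sum, and the rapamycin libraries overlapped both. The mean log2 level of the listed genes, relative to all libraries, overlapped, at 0.04 to 0.18 in young and -0.07 to 0.15 in aged. Between aged and young, 6 of the 12 values were below 0 (median -0.06), against 52.1% of all genes (median -0.01). Lamp5, a marker of neurogliaform cells, stood at 40.5, 47.2 and 45.2 CPM in aged 1 to 3 and at 35.1, 34.5 and 34.0 CPM in rapamycin 1 to 3, with log2 fold changes of -0.36 ± 0.11 against aged and -0.28 ± 0.10 against young. Ndnf, of the same cells, had 0.59 ± 0.23 between rapamycin and aged. Htr3a, the serotonin receptor channel of Vip and Cck cells, had -0.57 ± 0.25 between aged and young, and Crh -0.76 ± 0.38 between rapamycin and young. Tac2 had 1.45 ± 0.64 between aged and young, but it stood at 23.2 CPM in aged 1, the library high in thalamus and habenula genes, against 1.17 to 5.29 CPM in the other 9. The part of that tissue in the Tac2 value was not tested.

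Receptors of the peptides and of reelin (14 of 16 tested) gave Npy2r at -0.60 ± 0.29 and the somatostatin receptor gene Sstr3 at -0.45 ± 0.26 between aged and young. Sstr3 was at 0.75 ± 0.27 between rapamycin and aged, with all rapamycin libraries above the aged ones, as for 5.01% of all genes. Npy5r was at -0.54 ± 0.27 in that comparison, with all rapamycin libraries below the aged ones, as for 4.88% of all genes. Between rapamycin and young Npy5r was at -0.40 ± 0.25. Adcyap1r1, a receptor of the peptide family to which VIP belongs, had 0.35 ± 0.16 between rapamycin and young. In this list as in the others, no gene passed the test over all genes.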

How the data were processed

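Each hippocampus library came with a table of read counts per gene, deposited by the authors without normalization. STAR, HTSeq and mm10 are named per the submitters' processing notes, while version numbers, the annotation and the strand setting were not given in the sources used here. Rows that name no gene (5) did not enter library sizes or tests. As shares of the counts in genes and in these rows together, no feature took 11.6% to 16.0%, ambiguous 1.66% to 1.92% and not unique 5.09% to 8.01%. A level of 3 counts equalled 0.151 to 0.187 CPM, for counting error only, since reads are not independent molecules.

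All 10 libraries were fitted with their 3 groups in edgeR (filterByExpr, trimmed mean of M values, quasi-likelihood F-test, Benjamini-Hochberg over all genes, threshold 0.05). The biological coefficient of variation was 23.5%. Printed CPM are normalised, as mean ± SD, and fold changes are log2 ± SE. DESeq2, other filters and scalings, covariates, thinning, a replicate block and leaving out each library were alternatives. Tools were edgeR 4.0.16 and DESeq2 1.42.0, run in R 4.3.3, with numpy 2.4.6 and matplotlib 3.10.9 under Python 3.11.15.

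The markers and lists were chosen with earlier results of these data known. Named were all 10 markers, the 2 genes of smallest unadjusted p per interneuron list and comparison, genes of other lists past the threshold or needed beside a marker, and the 2 genes most like each marker. A few genes taken by this rule are left out of the text. Gene models are GENCODE M21 on GRCm38, and promoters are from RefSeq (GRCm38.p6).

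Same-numbered libraries of the 3 groups were compared by their deviations from group means: r ranged from -0.18 to 0.64 over 9 pairs, 6 of them above 0.1. Over the 24 pairs with unlike numbers r ranged from -0.57 to 0.52. The main fit did not pair libraries, because the labels do not say that the numbers pair them, and these values do not settle it. No 2 libraries of a group agreed within counting noise (lowest chi-square 12.3 per degree of freedom). The code was tested on simulated counts: of genes changed 2-fold it called 38.8% between aged and young (14742 genes), 41.8% between rapamycin and aged (14746 genes) and 40.3% between rapamycin and young (14720 genes), and of genes changed 1.5-fold 1.49%, 2.99% and 4.48%. The simulations gave 91, 91 and 90 calls in all, against 7, 0 and 8 in the data (edgeR). The adjustment is stricter where fewer genes change, so these shares may be too high for the data.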

Additional observations from a re-analysis of the deposited data

Results flagged for a closer look

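The oocyte libraries of the series enter none of the comparisons, and 4 of the 10 interneuron markers had counts there above the level of 3 counts (0.349 to 0.809 CPM) in at least 1 of 7 libraries. Reln was highest, at 18.3 CPM in 1 library and at 11.6 to 17.7 CPM in 5 others, with 1 count (0.269 CPM) in the remaining library, rapamycin oocyte 1. Gad2 reached 4.85 CPM and had 6 to 25 counts in all 7 oocyte libraries. Calb2 reached 2.15 CPM and was at 0 in 4 of 7, and Vip reached 0.698 CPM (6 counts) and was at 0 in 5 of 7. Gad1, Slc32a1, Pvalb, Sst, Npy and Cck had 0 counts in all 7. There is no tissue without these genes to serve as a control, so the comparison is with the limit of a count of 0 only.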

How the results depend on the processing

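No marker passed in any of 3 comparisons under any alternative. Of 200 values per comparison, 187 (aged and young), 182 (rapamycin and aged) and 185 (rapamycin and young) kept their direction, and none crossed the threshold. Reversals were as follows, and the cause was not tested. With the ribosomal protein covariate, Reln was 0.070 between aged and young, and Gad2 -0.075, Calb2 0.13, Sst 0.15, Npy 0.16, Cck 0.039 and Reln -0.011 between rapamycin and aged. With the thalamus and habenula covariate, Slc32a1 was 0.23, Sst 0.35, Npy 0.29 and Reln 0.022 between aged and young, and Slc32a1 -0.20 between rapamycin and aged. With the replicate block, Npy was 0.020 between aged and young and Calb2 -0.048 between rapamycin and young, and it changed no other call of a marker. Whether numbers mark pairs is not known from the labels: 4 of 9 libraries correlated best with their own number, and between aged and young the block took the SE of Pvalb from 0.39 to 0.20 and that of Npy from 0.32 to 0.17. Leaving out single libraries gave, between aged and young, -0.13 to 0.093 for Slc32a1, -0.17 to 0.17 for Sst, -0.26 to 0.13 for Npy and -0.19 to 0.035 for Reln. Between rapamycin and aged it gave -0.075 to 0.21 for Slc32a1, -0.38 to 0.14 for Calb2, -0.66 to 0.18 for Sst and -0.59 to 0.10 for Npy. Between rapamycin and young it gave -0.29 to 0.027 for Gad2, -0.090 to 0.16 for Slc32a1, -0.82 to 0.14 for Pvalb, -0.16 to 0.35 for Calb2, -0.71 to 0.13 for Sst, -0.65 to 0.019 for Npy and -0.027 to 0.33 for Reln. Over all genes, edgeR called 7 between aged and young, against 2 with only the 2 groups compared, 50 with DESeq2, 11 with the ribosomal and 2 with the thalamus covariate, and 0 to 15 with single libraries left out. Between rapamycin and aged it called 0, against 2 with only the 2 groups, 11 with DESeq2 and 0 to 1 with libraries left out. Between rapamycin and young it called 8, against 5 with a mean of at least 10 CPM, 5 with only the 2 groups, 4 with the replicate block, 31 with DESeq2, 16 with the ribosomal and 5 with the thalamus covariate, and 2 to 10 with libraries left out. Marker pairs that passed numbered 5, against 9 with group means subtracted (p-values likely too small), 1 without the 2 farthest libraries and 1 to 8 with libraries left out. Without those 2 libraries, r with the ribosomal level was 0.19 for Slc32a1 and -0.12 for Vip.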
